A study of Rattus norvegicus with 6 samples.

Results

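The 4 genes described here encode inflammatory cytokines: Il1b (ENSRNOG00000004649), Tnf (ENSRNOG00000000837), Il6 (ENSRNOG00000010278) and the chemokine Ccl2 (ENSRNOG00000007159). They were chosen by their Ensembl gene IDs and not by a cut on their values, though earlier results of these data were known. They are 4 of the 29516 gene IDs counted. RNA was sequenced from macrophages that had been cultured from the bone marrow of rats of the Wistar-Kyoto (WKY) strain. Of the 6 libraries, 3 came from wild-type WKY rats and 3 from WKY rats carrying a knockout (KO, Cyp2j4-/-) of Cyp2j4, an epoxygenase of the cytochrome P450 family that converts arachidonic acid to epoxyeicosatrienoic acids. The labels give no stimulus, rat age or culture time, and do not describe the knockout allele or how the line was made. They state 3 rats per genotype but do not tie libraries to rats or to culture days, so the p-values below take in no more than the variation among these 6 libraries.

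Macrophages make all 4 proteins when pattern recognition receptors such as the Toll-like receptors signal through NF-kB. Il1b encodes the precursor of interleukin-1 beta, which is cut and released through inflammasomes. Tnf encodes tumour necrosis factor, a membrane protein shed by a protease. Il6 encodes interleukin-6, which signals through a receptor complex that activates STAT3. Ccl2 encodes a chemokine that draws monocytes carrying the receptor Ccr2 into tissue.

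The counts identify genes by Ensembl ID alone, and 0 of the 29516 IDs could be paired with symbols in the RefSeq table used here. The names of the 4 genes were taken as given with their IDs and were not checked against an annotation. Cyp2j4 itself, macrophage markers, markers of other marrow cells, and the receptors, NF-kB components, feedback inhibitors and other cytokines of the pathway were therefore not analysed here, so neither the genotype labels nor the cell type was checked against expression. In bulk RNA of this kind, fewer cells of a type and less RNA per cell cannot be told apart.

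Gene counts per library ran from 27248491 to 33916549 in wild type and from 21590429 to 23923666 in knockout. Knockout replicate 2 stood apart: its Spearman correlation across genes was 0.983 and 0.985 with the other knockout libraries, which correlated at 0.994 with each other. Wild-type libraries correlated at 0.996 to 0.997. Knockout replicate 2 correlated with them at 0.985 to 0.993, beside 0.990 to 0.995 for knockout replicates 1 and 3. With wild type replicate 1 alone, knockout replicate 2 correlated more closely (0.993) than knockout replicates 1 and 3 did (0.992 and 0.991). Where a call or count below changed most without this library, the value without it is given beside it.

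The promoters are shown as sequence context for the genes whose values follow. RefSeq promoters of build GRCr8 were matched by symbol for 3 of the 4 genes (Ccl2 had no match), and the 250 bases before each annotated start are printed 5′ to 3′ on the gene's strand. These lie at chr3:137036582-137036831 (minus strand), chr20:3626435-3626684 (plus strand) and chr4:5894576-5894825 (minus strand). Capitals mark every match, on either strand, to 5 motifs: the NF-kB consensus, the cyclic AMP response element TGACGTCA, a C/EBP motif TTNNGNAAT, the AP-1 motif TGANTCA and the TATA box TATAAA.
Il1b: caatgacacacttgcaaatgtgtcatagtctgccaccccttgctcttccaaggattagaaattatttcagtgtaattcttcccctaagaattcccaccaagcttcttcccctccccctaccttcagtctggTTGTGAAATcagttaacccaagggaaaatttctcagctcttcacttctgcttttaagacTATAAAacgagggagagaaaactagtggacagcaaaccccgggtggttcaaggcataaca
Tnf: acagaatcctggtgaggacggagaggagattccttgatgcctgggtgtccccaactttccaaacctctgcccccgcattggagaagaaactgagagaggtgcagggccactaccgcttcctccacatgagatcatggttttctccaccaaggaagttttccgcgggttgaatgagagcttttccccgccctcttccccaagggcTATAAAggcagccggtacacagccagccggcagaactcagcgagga
Il6: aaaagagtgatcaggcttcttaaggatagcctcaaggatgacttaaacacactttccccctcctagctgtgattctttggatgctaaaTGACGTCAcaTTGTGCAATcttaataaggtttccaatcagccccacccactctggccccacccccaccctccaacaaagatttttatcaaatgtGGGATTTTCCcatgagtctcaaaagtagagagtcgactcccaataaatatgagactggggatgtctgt
The Il1b window held a C/EBP match (TTGTGAAAT, 119 to 111 bases before the start) and a TATA box 60 to 55 bases before it. The Tnf window held a TATA box alone, 46 to 41 bases before the start. The Il6 window held the cyclic AMP response element (162 to 155 bases before the start), a C/EBP match (TTGTGCAAT, 152 to 144) and an NF-kB match (GGGATTTTCC, 68 to 59). No match overlapped another. Of all 33469 promoter windows of this length, 12.9% held the TATA box, 10.9% the C/EBP motif, 6.33% the NF-kB consensus, 6.34% the AP-1 motif and 1.59% the cyclic AMP response element. The distances hold for the RefSeq starts, and whether transcription begins there in these cells was not tested. Matches to letters are a description of the windows and do not show that a factor binds there.

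In knockout macrophages Il1b and Tnf transcripts were lower than in wild type in every library, Ccl2 overlapped between genotypes, and Il6 was near the limit of counting in both. None of the 4 passed the threshold of the test across all genes. The test was edgeR's quasi-likelihood test with Benjamini-Hochberg adjustment, called at an adjusted p under 0.05 over 11645 genes with enough counts. It held 3 of the 4 genes, Il6 being too low for its filter. It called 0 of the 3, against 14 genes or 0.12% of all tested (13 higher in knockout, and 1 lower gene, or 0.00859%). At an unadjusted p under 0.05 there were 2 of the 3, Il1b and Tnf, both lower, and 342 lower genes or 2.94% among all tested (891 genes or 7.65% in either direction). With library totals alone as the scaling there were 626 lower genes among 1027. Without knockout replicate 2 the same 2 genes were at an unadjusted edgeR p under 0.05, beside 1041 lower genes or 8.77% among all tested (18.3% in either direction). The 3 log2 fold changes were all below 0, as were 54.3% of those tested, with a median of -0.38 beside -0.01 for all genes. Il6 was not among these 3, and its log2 ratio of mean CPM, from few counts, was 1.90.

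Il1b stood at 16.8, 17.8 and 15.7 CPM (gene counts scaled to a library total of 1000000) in wild type replicates 1 to 3 and at 12.3, 11.4 and 10.8 CPM in knockout replicates 1 to 3. The groups did not overlap, and the lowest wild-type library lay 3.39 CPM above the highest knockout library. These levels rest on 484 to 559 counts per wild-type library and 237 to 272 per knockout library. The means were 16.8 ± 1.02 CPM and 11.5 ± 0.788 CPM (SD, n = 3 each; p = 0.1 in an exact two-sided permutation test, which cannot go lower with 3 libraries a group). The knockout mean was thus 31.5% below the wild-type mean, a difference larger than the spread within either group. In the fit across all genes the log2 fold change was -0.50 ± 0.10 (SE; 95% interval -0.72 to -0.27), with an edgeR p of 0.0011 and an adjusted p of 0.152. By that p Il1b ranked 84 of the 11645 genes, and 1.97% of the genes had a lower log2 fold change. Without knockout replicate 2 the log2 fold change was -0.53 and edgeR's adjusted p 0.0368. Il1b was then among 43 genes called lower (0.362% of 11867, with 2.11% called in either direction). With any other single library left out Il1b was not called, at edgeR adjusted p from 0.219 (without knockout replicate 1) to 0.576 (without wild type replicate 2).

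Tnf stood at 22.9, 21.2 and 19.5 CPM in wild type replicates 1 to 3 and at 17.6, 16.5 and 13.3 CPM in knockout replicates 1 to 3. Again no knockout library reached the lowest wild-type library, but the gap was 1.95 CPM and knockout replicate 3 lay well below the other two. Counts ran from 577 to 762 in wild type and from 294 to 395 in knockout. The means were 21.2 ± 1.68 CPM and 15.8 ± 2.21 CPM (SD, n = 3 each; two-sided exact permutation p = 0.1), the knockout mean being 25.4% below wild type. The log2 fold change was -0.38 ± 0.13 (SE; 95% interval -0.68 to -0.07), with an edgeR p of 0.0222 and an adjusted p of 0.520. Without knockout replicate 3 it was -0.25, and without wild type replicate 1 -0.29, with edgeR adjusted p of 0.941 and 0.925. Without knockout replicate 2 it was -0.45 (edgeR adjusted p = 0.139).

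Genes whose libraries separate by genotype in this direction were common in the table. Of the genes tested, 11.9% had all 3 knockout libraries below all 3 wild-type libraries in CPM and 5.31% had all 3 above. With library sizes scaled by TMM (trimmed mean of M values, which corrects for differences in RNA composition) these shares were 7.45% and 7.54%. Il1b and Tnf were separated under both scalings, and Ccl2 under neither.

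**Figure D1:**
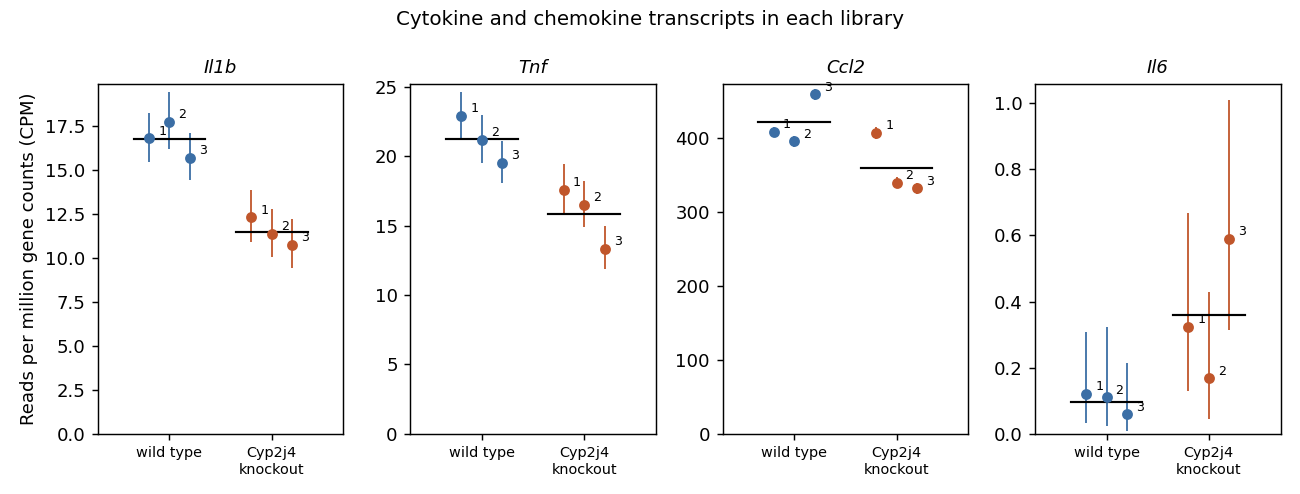
Levels of Il1b, Tnf, Ccl2 and Il6 in each library, in CPM on linear axes that start at 0 and differ between panels. Points are libraries labelled by replicate number, vertical bars are 95% Poisson intervals of the count, and horizontal lines are group means. For Il1b and Tnf the 3 knockout libraries lie below all wild-type libraries, Ccl2 overlaps, and Il6 stays under 1 CPM.

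Ccl2 had by far the most counts of the 4 genes, from 10796 to 15595 per wild-type library and from 7322 to 8794 per knockout library. Its levels were 409, 396 and 460 CPM in wild type replicates 1 to 3 and 407, 340 and 332 CPM in knockout replicates 1 to 3. Knockout replicate 1 lay inside the wild-type range, and both other knockout libraries lay below it. The means were 422 ± 33.6 CPM and 360 ± 41.2 CPM (SD, n = 3 each; two-sided exact permutation p = 0.2). The log2 fold change was -0.18 ± 0.09 (SE), with an edgeR p of 0.0835 and an adjusted p of 0.726. Its 95% interval, -0.39 to 0.03, reaches from a 1.31-fold lower to a 1.02-fold higher level in knockout, and so includes no difference. The 95% Poisson intervals, which cover counting error only, were 399 to 416 CPM for knockout replicate 1 and 325 to 340 CPM for knockout replicate 3. Without knockout replicate 1 the log2 fold change was -0.25, without wild type replicate 3 -0.12 and without knockout replicate 3 also -0.12 (edgeR adjusted p of 0.436, 0.999 and 0.957).

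Il6 was barely detected. It had 4, 3 and 2 counts in wild type replicates 1 to 3 and 7, 4 and 13 counts in knockout replicates 1 to 3, even though depth was lower in the knockout. The matching levels are 0.120, 0.110 and 0.0590 CPM for wild type against 0.324, 0.167 and 0.590 CPM for knockout, where 3 counts correspond to 0.0885 to 0.139 CPM. The knockout libraries all lay above the wild-type libraries, but the highest wild-type and the lowest knockout library had 4 counts each and differ in CPM by depth alone. Of all 17135 genes with a count, 5.31% were separated in this direction in CPM and 6.96% in TMM-scaled CPM. The means were 0.0964 ± 0.0329 CPM and 0.360 ± 0.214 CPM (SD, n = 3 each; two-sided exact permutation p = 0.1). Summed over libraries, 24 knockout counts against 9 wild-type counts give a ratio of 3.73 after correction for depth (exact 95% interval 1.67 to 9.11, which covers counting error only and takes no account of the spread between libraries). Knockout replicate 3 held 13 of the 24 counts. In an edgeR fit with no filter on low counts the log2 fold change was 1.89 ± 0.61 (SE) with an edgeR adjusted p of 0.416, and DESeq2 gave an adjusted p of 0.649. A difference in Il6 was therefore not established in these libraries.

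The spread among libraries of 1 genotype is described here for the 3 measurable genes, over 3 libraries a group. Differences in spread between the genes were not tested. The pooled SD within groups, on the log2 CPM scale with TMM scaling, was 0.09 for Il1b, 0.18 for Tnf and 0.12 for Ccl2, against a median of 0.15 over all genes tested. Il1b varied little: 19.5% of genes had a smaller SD, and 17.4% of the 1761 genes within 0.5 log2 units of its abundance did. For Tnf 68.0% of the 1947 genes of like abundance had a smaller SD, and for Ccl2 55.7% of 318. The SD of Tnf was 0.15 among wild-type and 0.21 among knockout libraries. These SDs include counting error. As a percentage of the count, counting error alone was 4.23 to 6.50 for Il1b, 3.62 to 5.83 for Tnf and 0.801 to 1.17 for Ccl2.

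Il1b and Tnf followed similar courses over the 6 libraries. Likeness was measured as the root mean square difference of log2 CPM after centring each gene on its own mean, a description over 6 libraries that includes the difference between genotypes. Between Il1b and Tnf it was 0.11, so that Tnf ranked 22 among the 11644 other genes by likeness to Il1b, and Il1b ranked 31 by likeness to Tnf. Ccl2 was less like either, at 0.20 from Il1b (rank 877 by likeness to Il1b) and 0.18 from Tnf (rank 731 by likeness to Tnf). By likeness to Ccl2 itself, Il1b ranked 6042 and Tnf 4588, in the middle of the table. Knockout replicate 3 had the lowest value of all 3 genes, at -0.34 for Il1b, -0.43 for Tnf and -0.20 for Ccl2 relative to their means. The highest value was in wild type replicate 1 for Il1b and Tnf (0.30 and 0.35) and in wild type replicate 3 for Ccl2 (0.21). The gene nearest to Il1b was ENSRNOG00000023216 (difference 0.07), with 3.36 to 3.56 CPM in wild type and 2.09 to 2.64 CPM in knockout. The gene nearest to Tnf was ENSRNOG00000029373 (0.04), with 7.84 to 8.93 CPM in wild type and 5.31 to 7.41 CPM in knockout. Neither ID has a symbol here.

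**Figure D2:**
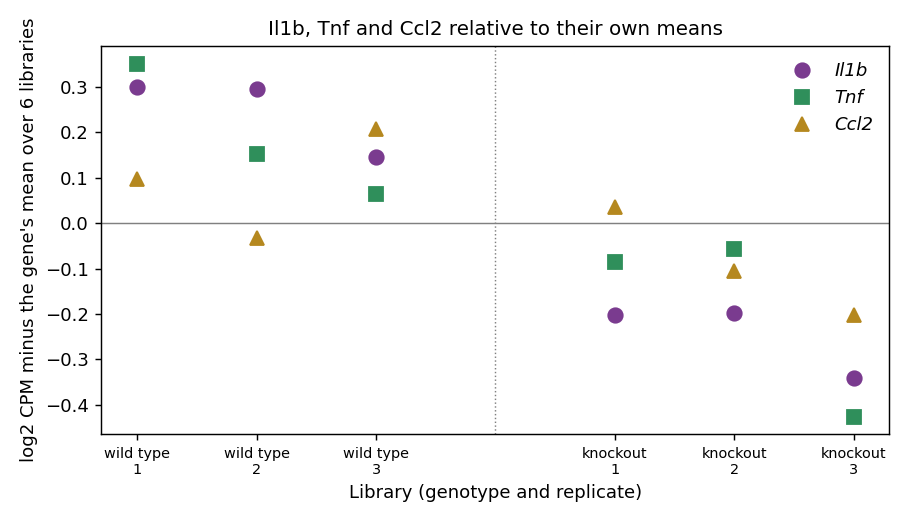
log2 CPM (TMM-scaled) of Il1b, Tnf and Ccl2 in each library, minus the mean of each gene over the 6 libraries. Il1b and Tnf are above 0 in all 3 wild-type and below 0 in all 3 knockout libraries, while Ccl2 crosses 0 in both groups, at -0.03 in wild type replicate 2 and 0.04 in knockout replicate 1.

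Ratios between genes of the same library do not depend on how library totals are scaled. They compare counts of genes of different length and are used only between libraries. The log2 ratio of Il1b to Tnf counts was -0.45, -0.25 and -0.31 in wild type replicates 1 to 3 and -0.51, -0.54 and -0.31 in knockout replicates 1 to 3. These overlap, and the group means of -0.34 ± 0.10 and -0.45 ± 0.12 (SD, n = 3 each) did not differ beyond the spread between libraries (two-sided exact permutation p = 0.3). The log2 ratio of Ccl2 to Il1b was 4.60, 4.48 and 4.87 for wild type against 5.05, 4.90 and 4.95 for knockout. All 3 knockout values were above the wild-type values, although wild type replicate 3 came within 0.03 of the lowest. Il1b itself was separated downward, and how many other genes separate in this way when set against Il1b was not counted. The separation is therefore not shown to be particular to Ccl2. The means were 4.65 ± 0.20 and 4.97 ± 0.07 (SD, n = 3 each; two-sided exact permutation p = 0.1). The log2 ratio of Ccl2 to Tnf averaged 4.31 ± 0.21 for wild type against 4.51 ± 0.14 for knockout (SD, n = 3 each; two-sided exact permutation p = 0.3).

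The differences of Il1b, Tnf and Ccl2 lay towards the lower end of the whole table but were smaller than those of the genes called with all libraries. Il6 was not in the fit across all genes, and its CPM, from few counts, was higher in knockout. Wild type exceeded knockout 1.41-fold for Il1b (95% interval 1.21 to 1.65), 1.30-fold for Tnf (1.05 to 1.60) and 1.13-fold for Ccl2 (0.979 to 1.31). The middle 50% of all genes lay between -0.11 and 0.08 on the log2 scale, and all 3 genes lay below that range, with 1.97%, 3.62% and 13.6% of genes lower than Il1b, Tnf and Ccl2. The 14 genes called at an adjusted p under 0.05 (edgeR, all libraries) differed by at least 2.52-fold. That gap depended on the fit. The smallest fold among called genes was 1.19 with DESeq2, 1.26 with limma-voom under sample quality weights and 1.21 without knockout replicate 2. In each of these Il1b was itself called. The smallest called fold ran from 1.74 to 2.68 in the other settings with all libraries. It ran from 2.80 to 27.8 with any other single library left out, in fits that called only 1 to 6 genes each. Il1b was called in none of these fits.

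**Figure D3:**
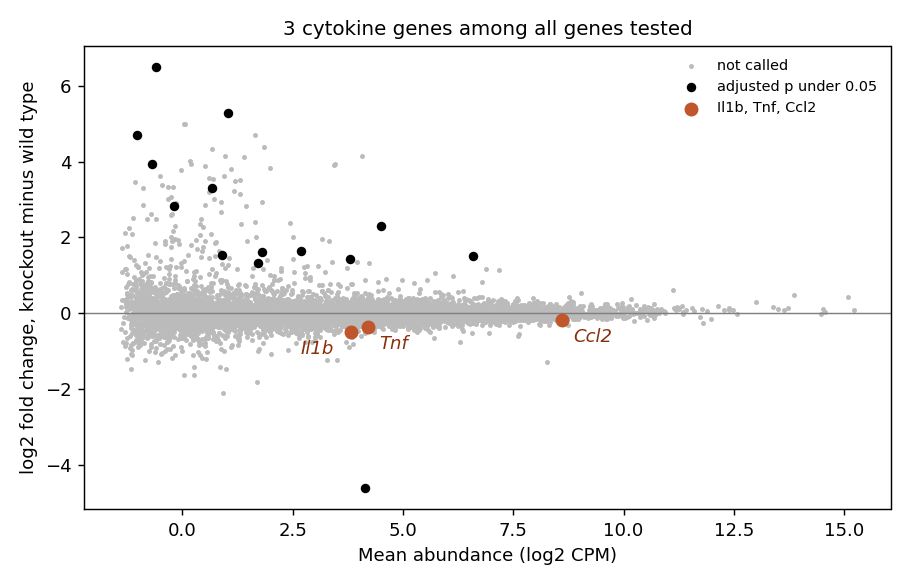
log2 fold change of knockout against wild type (edgeR) for the 11645 genes tested, by mean abundance in log2 CPM. Black points passed an adjusted p of 0.05. Il1b, Tnf and Ccl2 lie at -0.50, -0.38 and -0.18, on the lower side of the cloud and nearer to 0 than the genes called in this fit.

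The direction of Il1b, Tnf and Ccl2 was the same under every scaling, filter, test and omitted library that was run, while the call for Il1b depended on the choice. Il1b passed an adjusted p of 0.05 with DESeq2 (log2 fold change -0.49, adjusted p = 0.0177, where 18 lower genes or 0.126% were called). It also passed with limma-voom under sample quality weights, which give less weight to libraries that stand apart (-0.51, adjusted p = 0.0483, where 18 lower genes or 0.155% were called). It did not pass in the other 7 settings with all libraries (adjusted p from 0.108 to 0.386). Tnf and Ccl2 passed in none of the 15 alternatives, with lowest adjusted p of 0.139 and 0.339, both without knockout replicate 2 by edgeR.

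**Figure D4:**
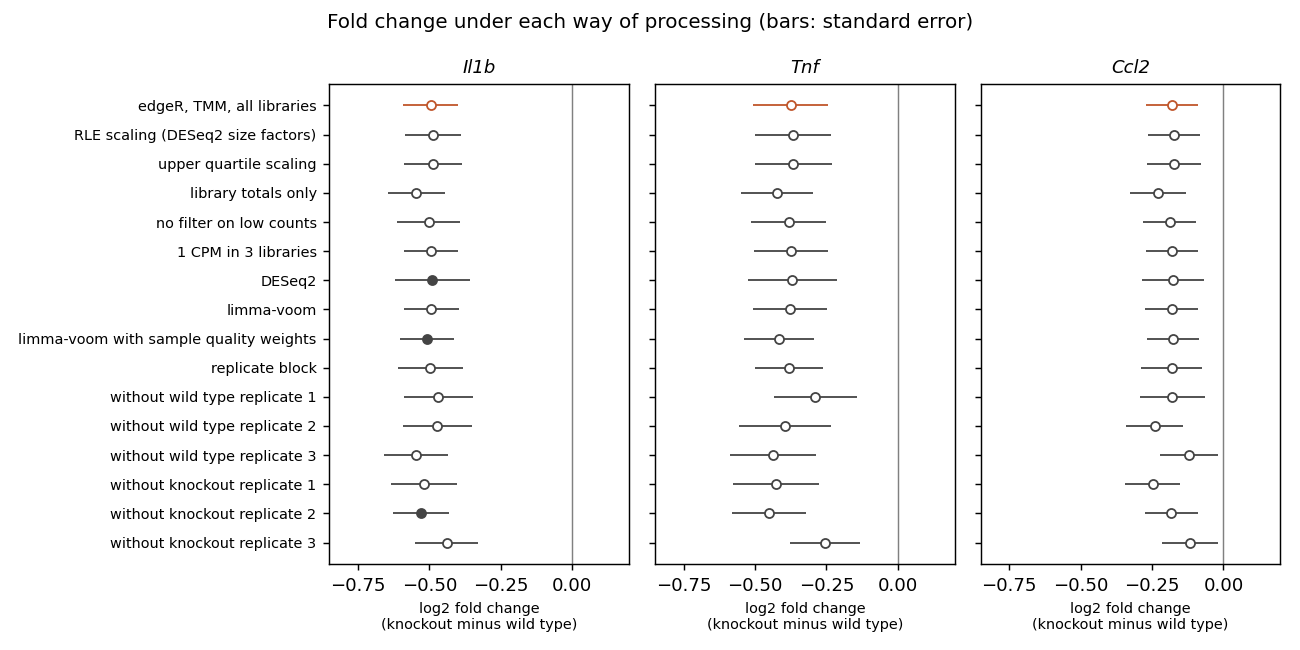
log2 fold change of Il1b, Tnf and Ccl2 under each setting, with bars of 1 standard error. Filled points passed an adjusted p of 0.05: for Il1b these are DESeq2, limma-voom with sample quality weights and the edgeR fit without knockout replicate 2. All points lie below 0.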

How the data were processed

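The authors deposited 1 table of raw read counts by gene ID. TopHat2, HTSeq and the build rn4 are named per the submitters' processing notes. No source used here gives tool versions, the annotation or the strand setting. Reads from overlapping or antisense genes could thus be assigned to the wrong partner. The 5 HTSeq summary lines were left out. They held 9.50% to 10.7% of listed reads as outside genes, 7.79% to 8.30% as aligned to several places and 0.799% to 0.943% as ambiguous.

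CPM is a count over the sum of the gene rows, times 1000000. Counts were tested in R 4.3.3 with edgeR 4.0.16 (filterByExpr, TMM, quasi-likelihood F test, genotype as the only term). Alternatives used DESeq2 1.42.0 and limma 3.58.1. Each edgeR standard error is the absolute log2 fold change over the square root of F. Those of DESeq2 and limma-voom are the standard errors of their own fits. A prior count of 2 was added before log2 CPM was taken. Intervals of counts cover counting error only, since the labels name no molecular identifiers. Genes given individually were the 4 cytokine genes and, by ID, at most 2 genes nearest to them in pattern. Genes and lists were chosen with earlier results of these data known.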

Additional observations from a re-analysis of the deposited data

How the results depend on the processing

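The 15 alternatives were 3 other scalings, 2 other filters, DESeq2, limma-voom with and without quality weights, a replicate block, and each library left out. Il1b passed the threshold in 3 of them, at -0.49 (DESeq2), -0.51 (quality weights) and -0.53 (without knockout replicate 2). Leaving out each library gave -0.55 to -0.44 for Il1b, -0.45 to -0.25 for Tnf and -0.25 to -0.12 for Ccl2, and other settings -0.55 to -0.49, -0.42 to -0.37 and -0.23 to -0.17. The 14 genes called over the table became 59 with no filter, 200 with DESeq2, 139 with quality weights, 27 with the replicate block, and from 1 to 250 with a library left out (omitting a wild-type library left 4, 1 and 1 for replicates 1 to 3, and omitting a knockout library left 6, 250 and 2). The cause was not tested.

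Replicate numbers are shared by both groups. The correlations of deviations between same-numbered libraries of the 2 genotypes were -0.44, -0.14 and 0.15. Between libraries of different number they ran from -0.33 (wild type 3, knockout 2) to 0.45 (wild type 1, knockout 2). The numbers were taken as names only. With the replicate block the log2 fold changes were -0.50, -0.38 and -0.18 for Il1b, Tnf and Ccl2, with edgeR adjusted p of 0.386, 0.768 and 0.999. The log2 ratio of mean CPM of Il6 was 1.90, from 1.35 to 2.24 with a library left out, and 1.94 with TMM-scaled totals. Il6 rests on only 2 to 13 counts per library.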
